A study of Mus musculus with 12 samples.

Results

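The guide strands of the miR-232724 clusters, mmu-miR-23a, mmu-miR-23b, mmu-miR-24, mmu-miR-27a and mmu-miR-27b, were followed in mouse embryonic fibroblasts with and without ATF4 during treatment with tunicamycin. They were chosen by name, are written below without the species prefix, and made up 5 of the 611 mouse miRNA names on the array. ATF4 is a transcription factor of the endoplasmic reticulum stress response, and tunicamycin blocks N-linked glycosylation of proteins, which loads the endoplasmic reticulum with misfolded protein. The cells were deficient in ATF4 (ATF4KO, KO below) or wild type for it (ATF4WT, WT below), both on a C57BL/6 background. Each genotype was cultured untreated or with 2 µg/mL tunicamycin for 12 h or 24 h, which gave 6 groups of 2 arrays, 12 arrays in all. Per the series' design text the 2 arrays of a group came from independent experiments. The labels give neither the number of embryos or lines behind each genotype nor the way the ATF4 deficiency was made, and a miRNA array does not measure the Atf4 transcript, so the genotype could not be checked here.

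Each cluster is transcribed as 1 primary transcript that Drosha and Dicer cut into 3 guide strands, and a guide strand loaded into Argonaute represses transcripts that pair with its seed, bases 2 to 8. The miR-27 family is best known for holding back adipocyte differentiation, miR-23 for repressing glutaminase downstream of Myc, and miR-24 for repressing cell cycle genes. Mature abundance follows both transcription of the cluster and the processing and decay of each strand, so strands of 1 transcript can differ in level.

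The mature sequences are shown because the a and b members share seeds and nearly all other bases, which bears on how separately an array can read them. Of the 5 members, 4 matched the RefSeq miRNA table of build GRCm38.p6 (miR-23b was not among them). Sequences run 5′ to 3′ and capitals mark the seed.
miR-23a: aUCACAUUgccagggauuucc
miR-27a: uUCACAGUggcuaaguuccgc
miR-27b: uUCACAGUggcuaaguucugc
miR-24: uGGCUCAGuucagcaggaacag
miR-27a and miR-27b share 1 seed and differ by 1 base in 21, C19U, counted from 1 at the 5′ end with the base of miR-27a first. Mir23a, Mir27a and Mir24-2 lie on the plus strand within 404 bases at chr8:84208518-84208921, where no annotated protein-coding gene spans them. Mir23b, Mir27b and Mir24-1 lie on the plus strand within 792 bases at chr13:63300484-63301275, inside the bounds of Aopep, which encodes an aminopeptidase. The mature miR-24 sequence is identical from its 2 loci, at chr8:84208875-84208896 and chr13:63301251-63301272, so its signal cannot be assigned to either cluster. The mature miR-23a lies at chr8:84208563-84208583, miR-27a at chr8:84208727-84208747 and miR-27b at chr13:63300760-63300780. How far the probes of one miR-27 also bind the other is not given in the sources used here.

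Values are log2 of a miRNA's signal after division by the array's 75th percentile over 82 miRNAs well above background everywhere, so 0 means a signal at that percentile. All 5 guide strands were well above background on all 12 arrays, and none of their spots was saturated. Between 92 and 164 mouse miRNAs per array were well above background, and the 75th percentile of signal lay between 203.5 and 791.2 arbitrary units. Of 8 miRNAs typical of fibroblasts and mesenchyme, 5 to 7 were well above background per array, with a summed scaled signal of 18.9 to 43.7. No listed miRNA of epithelium (7), neural cells (5) or blood (6) was well above background on any array, and at most 1 per list was for muscle (4), endothelium (2) and pluripotent cells (8). All 4 untreated arrays were on 1 slide and all 8 tunicamycin arrays on the other, and the effects of slide and tunicamycin cannot be told apart. WT arrays were in the first and KO arrays in the second slide row, so genotype and row cannot be told apart either. For the 5 members, replicate arrays stood closest in the untreated groups, with a pooled SD of 0.0455 in KO and 0.0519 in WT. They stood farthest apart in KO at 24 h, at 0.595. Over all tested miRNAs the pooled SD was 0.128 in untreated KO and 0.152 in untreated WT. With tunicamycin it was 1.22 in WT and 1.1 in KO at 12 h, and 0.512 in WT and 0.95 in KO at 24 h. The fit of all groups shares this unequal spread, so the percentages of all tested miRNAs that passed rest on it too. In bulk RNA, fewer cells of a type and less of a miRNA per cell cannot be told apart.

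Without tunicamycin, both miR-27 strands were higher in KO than in WT cells. miR-27a was at 0.80 and 0.69 on the 2 untreated KO arrays, against −0.01 and −0.01 on the 2 untreated WT arrays. Both KO arrays stood above both WT arrays by more than the gap between replicates. Here and below, lack of overlap between 2 arrays and 2 only describes the values. Its share over all tested miRNAs is not given, so it sets no member apart. The log2 difference was 0.76 ± 0.19 (SE), a 1.69-fold higher signal (limma, adjusted p = 0.0232; 95% interval 0.30 to 1.21). miR-27b, from the other cluster, was at −1.51 and −1.56 in untreated KO cells, against −2.56 and −2.65 in untreated WT cells. It also showed no overlap, and its log2 difference was 1.07 ± 0.28, a 2.10-fold higher signal (adjusted p = 0.0256; 95% interval 0.40 to 1.74). The 2 scan dates, which each held 1 array of both genotypes, gave 0.81 and 0.70 for miR-27a and 1.05 and 1.09 for miR-27b. So 2 of 5 members passed, both as higher in KO, where 32.4 percent of the 145 tested miRNAs passed. Of all 145, 6.9 percent passed as higher in KO and 25.5 percent as lower. The median log2 difference of all tested miRNAs was −0.49, opposite in sign to both miR-27 strands. That median moved with the scaling, to −0.21 with median scaling and −0.08 with quantile normalization.

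The other 3 members did not pass between untreated KO and WT cells. miR-23a was at 0.55 and 0.54 in KO, against 0.37 and 0.37 in WT, a log2 difference of 0.18 ± 0.18 (adjusted p = 0.529). miR-23b was at −0.36 and −0.30 in KO, against −0.72 and −0.72 in WT, a log2 difference of 0.39 ± 0.44 (adjusted p = 0.586). The KO arrays lay above the WT arrays for both miR-23 strands, which describes 2 arrays against 2. The standard errors of these strands take in the wider spread of the tunicamycin groups. In a fit of the 4 untreated arrays alone the adjusted p was 0.00529 for miR-23a and 0.00487 for miR-23b, and 4 of 5 members passed, where 62.1 percent of all tested miRNAs passed (90 of 145). miR-24 was at 0.38 and 0.42 in KO, inside the 0.49 and 0.35 of the WT arrays, with a log2 difference of −0.02 ± 0.08 (adjusted p = 0.895; 95% interval −0.20 to 0.16). So the 2 strands on either side of the miR-27 hairpin of each cluster were not called along with it in the fit of all groups.

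**Figure D1:**
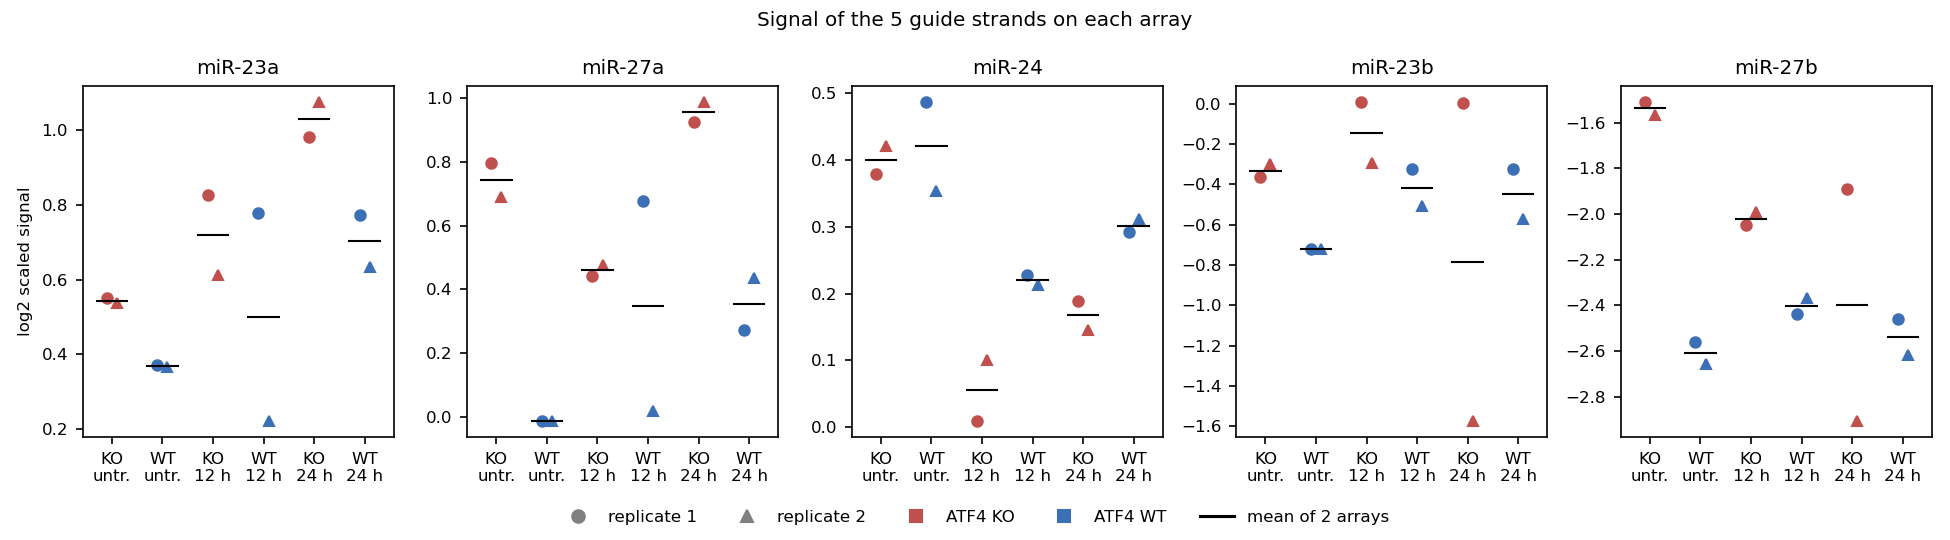
Signal of the 5 guide strands on each of the 12 arrays, as log2 of the signal over the array's 75th percentile, with KO left of WT at each time and lines at the mean of 2 arrays. The panels have their own vertical scales. The 2 untreated KO arrays stand above the 2 untreated WT arrays for miR-27a and miR-27b, and miR-23b and miR-27b split between the 2 KO arrays at 24 h.

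The miR-27 calls depended on the processing, with scaling, signal summary, background correction and filter among the steps that mattered. In 18 other settings the untreated KO minus WT difference stayed above 0 for both strands, between 0.35 and 1.32 for miR-27a and between 0.97 and 1.65 for miR-27b. The call was kept in 10 of 18 settings for miR-27a and in 12 of 18 for miR-27b. Both calls were lost with median scaling, with quantile normalization, with a 75th percentile over all mouse miRNAs, with Agilent's total gene signal, with normexp background correction and without the filter on dim miRNAs. For miR-27a the call was also lost with the deposited table as given and with no scaling. Leaving out 1 array at a time kept both calls in 8 of 12 fits and lost them without any 1 of the 4 untreated arrays, when a lone array is assumed to vary like the other groups. The difference itself then ranged only from 0.70 to 0.81 for miR-27a and from 1.02 to 1.12 for miR-27b.

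**Figure D2:**
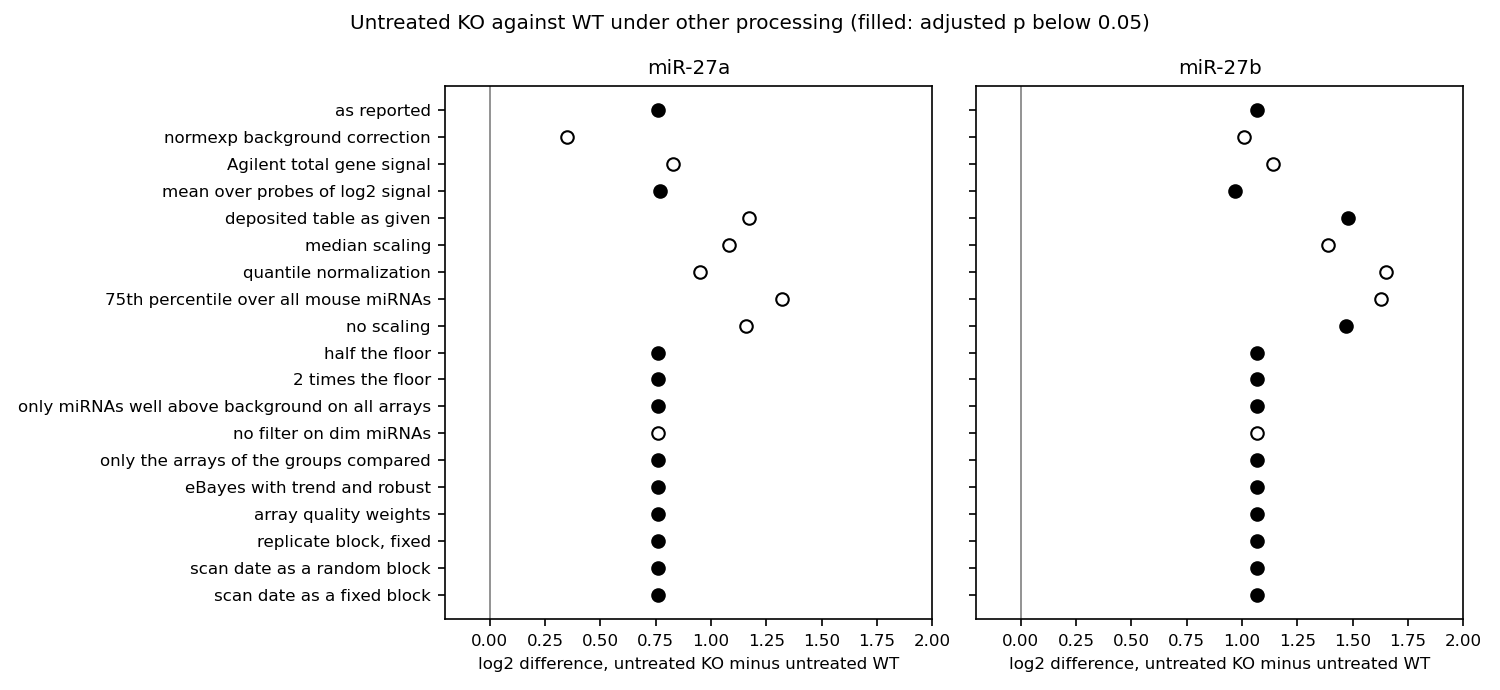
Log2 difference of untreated KO minus untreated WT for miR-27a and miR-27b, as reported (top) and under 18 other settings, with filled points where the adjusted p was below 0.05. All points lie right of 0, and 10 of the 18 other settings for miR-27a and 12 for miR-27b are filled.

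Under tunicamycin none of the 5 strands passed between KO and WT cells at either time. At 12 h, 0 of 5 members passed, and 0 had an unadjusted p below 0.05, where 24.8 percent of all tested miRNAs passed. miR-27a was at 0.44 and 0.48 in KO cells at 12 h, against 0.68 and 0.02 in WT cells, whose 2 arrays lay on either side of the KO values. Its log2 difference was 0.11 ± 0.19 (limma, adjusted p = 0.902), and it became 0.44 without the first WT array and −0.22 without the second. Without that first WT array the difference of miR-23a, 0.22 with all arrays, was 0.50. miR-27b was at −2.05 and −1.99 in KO cells at 12 h, against −2.44 and −2.37 in WT cells, a log2 difference of 0.38 ± 0.28 (adjusted p = 0.45). The KO arrays were still the higher ones for miR-27b, by less than in untreated cells. The 2 KO arrays at 24 h, which are in no group of this comparison, set much of the standard error of miR-27b. Its side of the threshold depended on them. Here and below, leaving out either array of such an outside group gives 1 and the same fit. Calls over all miRNAs rose in these fits too, so they set no member apart, and no p is given from them. miR-23b was at 0.01 and −0.29 in KO cells at 12 h, against −0.32 and −0.51 in WT cells, a log2 difference of 0.27 ± 0.44 (adjusted p = 0.876). For miR-23a the log2 difference was 0.22 ± 0.18 (adjusted p = 0.487).

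At 24 h, again 0 of 5 members passed, 1 had an unadjusted p below 0.05, and 15.2 percent of all tested miRNAs passed. miR-27a was at 0.93 and 0.99 in KO cells, against 0.27 and 0.44 in WT cells. The groups did not overlap, and the log2 difference of 0.60 ± 0.19 missed the threshold (limma, adjusted p = 0.0854; 95% interval 0.14 to 1.06). miR-27a varied most between the 2 WT arrays at 12 h, which are in no group of this comparison. Its side of the threshold depended on them. miR-23a was at 0.98 and 1.08 in KO cells at 24 h, against 0.77 and 0.63 in WT cells, a log2 difference of 0.33 ± 0.18 (adjusted p = 0.32). The KO arrays were again the higher ones without overlap. miR-27b was at −1.89 and −2.91 in KO cells at 24 h, on either side of the −2.46 and −2.62 in WT cells, with a log2 difference of 0.14 ± 0.28 (adjusted p = 0.924). The log2 difference of miR-24 was −0.17 at 12 h (adjusted p = 0.182) and −0.13 at 24 h (adjusted p = 0.33). For miR-23b at 24 h it was −0.34 (adjusted p = 0.751).

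Comparisons of 1 genotype's tunicamycin groups share their untreated arrays, and each comparison's values are given as its own. Over the 3 conditions together, miR-27a averaged 0.49 ± 0.11 (SE) higher in KO than in WT on the log2 scale (limma, adjusted p = 0.0117), and miR-27b 0.53 ± 0.16 higher (adjusted p = 0.0364). So 2 of 5 members passed, where 42.8 percent of all tested miRNAs passed, and 16.6 percent passed as higher in KO. This mean holds the untreated difference given above. The other 3 missed the threshold, with 0.24 ± 0.10 for miR-23a (adjusted p = 0.109), 0.11 ± 0.26 for miR-23b (adjusted p = 0.848) and −0.11 ± 0.04 for miR-24 (adjusted p = 0.101). Leaving out 1 array at a time, the miR-27a call held in 12 of 12 fits with values of 0.38 to 0.60. The miR-27b call held in 2 of 12, without the first KO array at 24 h (0.36) and without the second (0.70), and its values were 0.50 to 0.56 in the other 10. In 18 other settings each of the 2 calls was kept in 10. Without the second KO array at 24 h miR-23b passed as well, at 0.37 (adjusted p = 0.013), and without the first WT array at 12 h miR-23a passed, at 0.33 (adjusted p = 0.00875). Without the second untreated WT array miR-24 passed, at −0.13 (adjusted p = 0.0356). miR-24 also passed, at −0.11, with the mean over probes of log2 signal (adjusted p = 0.0274) and with 2 times the floor (adjusted p = 0.0275). With scan date as a fixed block the miR-27b difference over the 3 conditions stayed at 0.53 and missed the threshold (adjusted p = 0.0549).

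In WT cells, tunicamycin moved none of the 5 strands past the threshold, and 4 of 5 had a positive difference at both times. At 12 h, 0 of 5 passed (1 had an unadjusted p below 0.05), whereas 31 percent of all tested miRNAs passed, nearly all of these as lower with tunicamycin (30.3 percent of those tested). The median log2 difference was 0.20 for the 5 members and −0.32 for all tested miRNAs. miR-24 was the exception in direction, at 0.23 and 0.21 with tunicamycin for 12 h, against 0.49 and 0.35 untreated. Both treated arrays were below both untreated arrays, by −0.20 ± 0.08 on the log2 scale (limma, adjusted p = 0.0949), although the difference was 0.09 with median scaling. miR-27a was at 0.68 and 0.02 at 12 h, against −0.01 and −0.01 untreated, a log2 difference of 0.36 ± 0.19 (adjusted p = 0.233) that rested on the first array: without the second treated array it was 0.69. The miR-24 difference passed with one or the other KO array at 24 h left out (adjusted p = 0.0484). miR-23a split in the same way, at 0.78 and 0.22 with tunicamycin, against 0.37 and 0.37 untreated (log2 difference 0.13 ± 0.18, adjusted p = 0.683).

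At 24 h in WT cells, 0 of 5 members passed (0 with an unadjusted p below 0.05), against 15.2 percent of all tested miRNAs. miR-23a was 0.34 ± 0.18 higher with tunicamycin (adjusted p = 0.248) and miR-27a 0.37 ± 0.19 higher (adjusted p = 0.248), with both treated arrays above both untreated arrays for each. With one or the other WT array at 12 h left out the miR-27a difference passed (adjusted p = 0.033). miR-23b was at −0.32 and −0.57 with tunicamycin, against −0.72 and −0.72 untreated, a log2 difference of 0.27 ± 0.44 (adjusted p = 0.759). miR-27b was within 0.07 ± 0.28 of its untreated level (adjusted p = 0.943) and miR-24 within −0.12 ± 0.08 (adjusted p = 0.374). Without any scaling between arrays, the differences of miR-23a, miR-23b, miR-27a and miR-27b at 24 h in WT were −0.49, −0.55, −0.46 and −0.76, so these 4 directions belong to the scaled values.

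In KO cells, tunicamycin also moved none of the 5 strands past the threshold, and the signs of several differences turned with the scaling. At 12 h, 0 of 5 passed (1 with an unadjusted p below 0.05), where only 1.38 percent of all tested miRNAs passed. miR-24 was at 0.01 and 0.10 after 12 h, against 0.38 and 0.42 in untreated KO cells. The groups were well apart, and the log2 difference was −0.35 ± 0.08 (limma, adjusted p = 0.132; 95% interval −0.53 to −0.16). Its side of the threshold depended on the KO arrays at 24 h and on the untreated WT arrays, which are in neither group. The difference passed with the mean over probes of log2 signal, 2 times the floor and array quality weights (adjusted p = 0.0194, 0.0147 and 0.0191). miR-27b was at −2.05 and −1.99 after 12 h, against −1.51 and −1.56 untreated, a log2 difference of −0.48 ± 0.28 (adjusted p = 0.548). Its side of the threshold also depended on the KO arrays at 24 h. miR-27a was at 0.44 and 0.48 after 12 h, against 0.80 and 0.69 untreated, a log2 difference of −0.28 ± 0.19 (adjusted p = 0.573). Both miR-27 strands had both 12 h arrays below both untreated KO arrays. miR-23a differed by 0.17 ± 0.18 (adjusted p = 0.705), a sign that turned in 5 other settings, to −0.03 with median scaling and −0.52 with no scaling among them. miR-23b differed by 0.19 ± 0.44 (adjusted p = 0.902).

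At 24 h in KO cells, 0 of 5 members passed, 3 had an unadjusted p below 0.05, and 2.76 percent of all tested miRNAs passed. miR-23a was at 0.98 and 1.08 after 24 h, against 0.55 and 0.54 in untreated KO cells, a log2 difference of 0.49 ± 0.18 (limma, adjusted p = 0.207). These 2 arrays were the highest of all 12 for miR-23a, but without scaling the difference was −0.66. miR-24 was at 0.19 and 0.15 after 24 h, against 0.38 and 0.42 untreated, a log2 difference of −0.23 ± 0.08 (adjusted p = 0.182). miR-27a differed by 0.21 ± 0.19 (adjusted p = 0.543), and this sign also turned in 5 other settings, to −0.03 with median scaling and −0.93 with no scaling among them. miR-27b differed by −0.86 ± 0.28 (adjusted p = 0.182), with −0.38 for the arrays of replicate 1 and −1.34 for those of replicate 2.

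On the scale used here, miR-24 was the only member whose tunicamycin arrays all lay apart from its untreated arrays. Its 8 tunicamycin arrays lay between 0.01 and 0.31, and its 4 untreated arrays between 0.35 and 0.49. The step between these ranges was smaller than the gap of 0.13 between the 2 untreated WT arrays. In WT the sign of its difference turned with other scalings, to 0.09 at 12 h with median scaling. At 24 h it turned to 0.02 with quantile normalization and 0.11 with a 75th percentile over all mouse miRNAs. The order of its group means ran from KO at 12 h, the lowest, through KO at 24 h, WT at 12 h and WT at 24 h to both untreated groups, which overlapped. All neighbours below the untreated groups were apart by more than their 2 arrays, though by at most 0.11 between means. Slide and treatment coincide, so no share of this gap can be given to either.

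**Figure D3:**
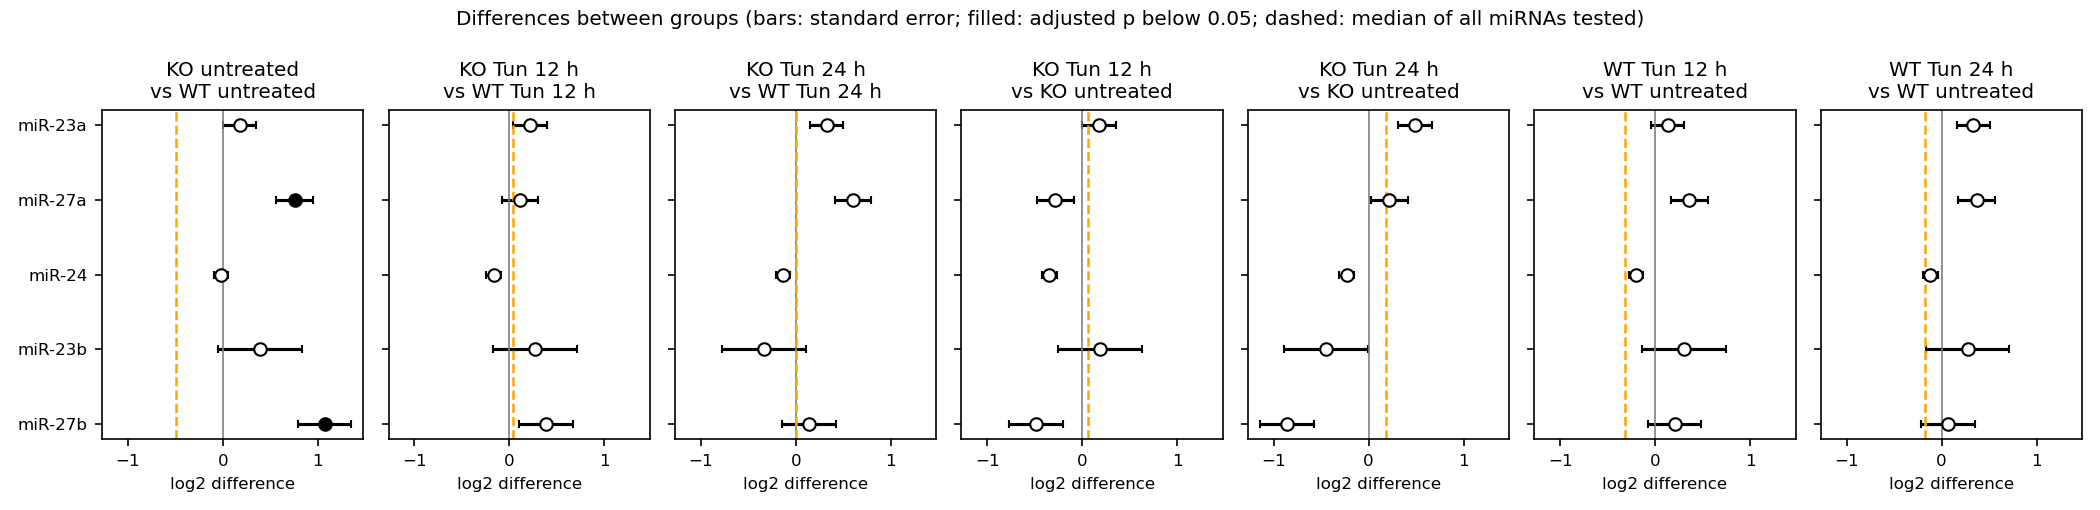
Log2 differences of the 5 guide strands in 7 comparisons, each point with its standard error, filled where limma's adjusted p was below 0.05, and a dashed line at the median of all 145 tested miRNAs. Only miR-27a and miR-27b in untreated KO against untreated WT are filled, and miR-24 is left of 0 in each of the 7 panels on this scale, but not under all other scalings (0.30 in the first panel with median scaling).

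Among the guide strands, the second KO array at 24 h stood apart for miR-23b and miR-27b of the chromosome 13 cluster. Replicates of this group also lay far apart over all tested miRNAs, with a pooled SD of 0.95, against 0.595 for the members. Wide gaps between these arrays are therefore not particular to this cluster. miR-23b was at 0.01 on the first and −1.57 on the second KO array at 24 h, and miR-27b at −1.89 and −2.91. The other 3 strands differed by 0.04 to 0.09 between the same arrays. The unscaled signal of miR-23b was 204.3 on the first and 190.2 on the second array, whereas that of miR-23a was 402.1 and 1194 and that of miR-27a 386.7 and 1124, with a 75th percentile of 203.5 and 566.3. Both probes of miR-23b showed the drop, from a scaled signal of 0.801 to 0.274 for 1 probe and 0.203 to 0.0622 for the other. That array had 164 mouse miRNAs well above background, the most of any, and the first had 92, the fewest. It shared its slide with all tunicamycin arrays and its scan date with the other tunicamycin arrays of replicate 2.

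For these strands, the comparisons with KO at 24 h are given with and without it. KO at 24 h against untreated KO, miR-23b differed by −0.45 ± 0.44 with both arrays (limma, adjusted p = 0.543) and by 0.34 without the second, and miR-27b by −0.86 and −0.36. Without the first array instead, these were −1.24 for miR-23b and −1.37 for miR-27b. Either fit leaves 1 KO array at 24 h and takes its spread from the other groups, so only differences are given. KO at 24 h against WT at 24 h, miR-23b differed by −0.34 with both arrays (adjusted p = 0.751) and by 0.45 without the second, and miR-27b by 0.14 and 0.65. Without the first array miR-23b differed by −1.13 and miR-27b by −0.37.

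With all 12 arrays, the difference in response between KO and WT missed the threshold for each of the 5 strands. For the response at 12 h, KO minus WT, 0 of 5 passed (0 with an unadjusted p below 0.05), against 22.8 percent of all tested miRNAs. The largest differences were in the miR-27 family, at −0.64 ± 0.27 for miR-27a (limma, adjusted p = 0.152) and −0.69 ± 0.40 for miR-27b (adjusted p = 0.304). Behind these stand a KO response of −0.28 and a WT response of 0.36 for miR-27a, and of −0.48 and 0.20 for miR-27b. miR-23a (0.04, adjusted p = 0.938), miR-23b (−0.12, adjusted p = 0.936) and miR-24 (−0.15, adjusted p = 0.424) differed less. At 24 h, 0 of 5 passed (0 with an unadjusted p below 0.05), against 8.28 percent of all tested miRNAs. The difference was −0.93 ± 0.40 for miR-27b (adjusted p = 0.209), −0.73 ± 0.62 for miR-23b (adjusted p = 0.539) and between −0.15 and 0.15 for the other 3. The median over all tested miRNAs was 0.48 at 12 h and 0.34 at 24 h. In a fit of only the 8 arrays compared at 12 h, the miR-27b difference of −0.69 passed (adjusted p = 0.00484), where 47 of all 145 passed. That of miR-27a at 12 h was −0.97 without the second WT array at 12 h. At 24 h the miR-27b difference was −1.44 without the first KO array and −0.42 without the second. At 24 h that of miR-23b was −1.52 without the first and 0.06 without the second.

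Between 24 h and 12 h of tunicamycin, 0 of 5 members passed in either genotype, and limma called 0 percent of all 145 miRNAs in both. Among all tested miRNAs, 10 had an unadjusted p below 0.05 in KO and 5 in WT. The members' log2 differences, 24 h minus 12 h, ran from −0.64 (miR-23b) to 0.50 (miR-27a) in KO cells and from −0.14 (miR-27b) to 0.20 (miR-23a) in WT cells.

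The a and b members of a family come from different chromosomes, so their ratio within an array compares the 2 clusters free of the array's scale. The absolute ratio also holds the brightness of the probes, and only its change between groups can be read. The log2 ratio of miR-23b to miR-23a averaged −1.18 in KO and −1.05 in WT, a mean difference of −0.13 (two-sided exact permutation test within condition, p = 0.954, adjusted over 2 ratios 0.954). The log2 ratio of miR-27b to miR-27a averaged −2.70 in KO and −2.75 in WT, a mean difference of 0.04 (same exact test, p = 0.824, adjusted 0.954). The smallest p this design allows is 0.00926. Without the second KO array at 24 h the mean difference was 0.15 for the miR-23 ratio and 0.22 for the miR-27 ratio, and without the first it was −0.41 and −0.14. By condition the KO minus WT difference of the miR-27 ratio was 0.31 untreated, 0.27 at 12 h and −0.46 at 24 h, and that of the miR-23 ratio was 0.21, 0.05 and −0.66. On the second KO array at 24 h the ratios were −2.65 and −3.90, where the other 11 arrays ran from −1.20 to −0.73 for miR-23 and from −3.11 to −2.25 for miR-27.

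**Figure D4:**
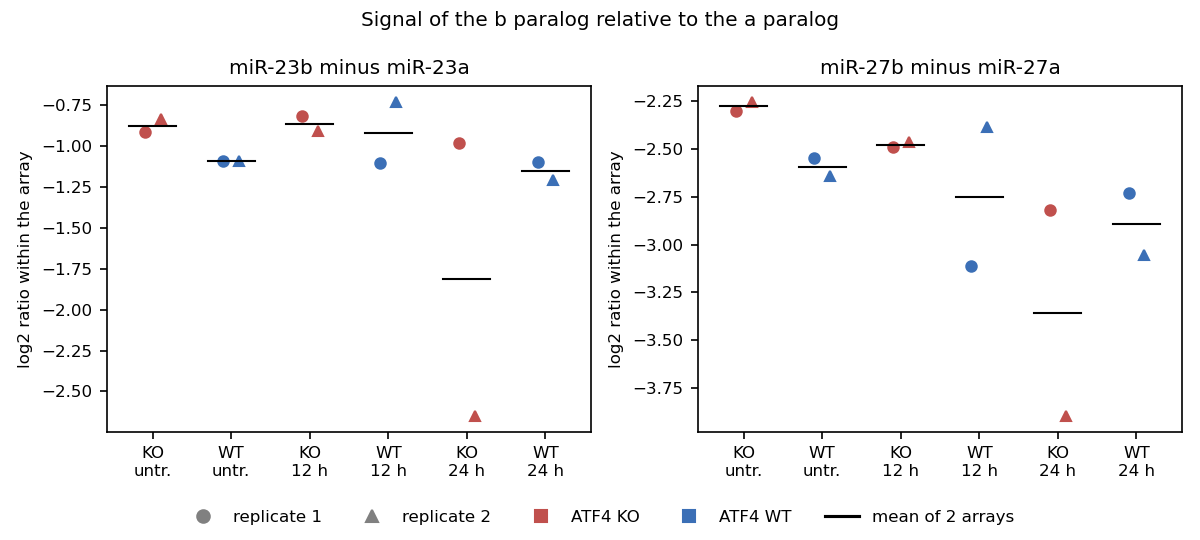
Log2 ratio of the b to the a paralog on each of the 12 arrays, with KO left of WT at each time and lines at the mean of 2 arrays. The second KO array at 24 h is the lowest in both panels, at −2.65 for miR-23 and −3.90 for miR-27.

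Passenger strands of the same hairpins gave little signal. Of 6 listed, 4 were on the array, 2 were well above background on any array, and 1, miR-24-1*, was bright enough to be tested. miR-24-1* is the strand opposite to miR-24 in the chromosome 13 hairpin, at chr13:63301213-63301235, and its sequence is shown as that of the 1 passenger strand tested.
miR-24-1*: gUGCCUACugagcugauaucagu
It was at −4.38 and −4.42 in untreated KO cells, and between −4.76 and the floor of −4.93 on the other 10 arrays. Untreated KO was its only group with both arrays well above background. It was thus tested through that group alone, and its being highest there is what the filter favours. Before the floor its scaled signal was 0.048 and 0.0466 in untreated KO cells, against 0.0286 and 0.0265 in untreated WT cells, where 1 of the 2 arrays was well above background. Both WT values are under the floor, so no fold is given for this pair of groups. In KO cells at 24 h it was not well above background on either array. Its scaled signal on those arrays was 0.037 and 0.0119. No fold or p is given against untreated KO cells, because the filter selected the strand by its signal in them.

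Across the 12 arrays, the nearest tested miRNAs were partly shared between miR-23a and miR-27a, and between miR-23b and miR-27b. The Pearson correlations that follow are over arrays that share scaling and slides, and are descriptions. miR-27b was most like miR-218 (r = 0.92), miR-193b (0.88) and miR-24-1* (0.83). miR-24-1* was tested only through untreated KO cells, where miR-27b was also highest, so its r carries that selection. miR-23b was most like miR-193b (0.62), miR-99a (0.59) and miR-218 (0.57). miR-23a was most like miR-30c (0.84), miR-183 (0.79) and miR-1224 (0.73), and miR-27a was most like miR-361 (0.67), miR-183 (0.66) and miR-1224 (0.64). miR-24 was most like miR-93 (0.84), miR-99b (0.77) and miR-500 (0.74). Among the members themselves, r was 0.78 for miR-23a with miR-27a and 0.68 for miR-23b with miR-27b, or 0.71 and 0.60 without the second KO array at 24 h. miR-24, which both clusters hold, had −0.54 with miR-23a, −0.29 with miR-27a, −0.15 with miR-23b and 0.05 with miR-27b. Between the clusters the values turned on that 1 array. miR-23a with miR-23b was −0.06 with it and 0.80 without it, miR-27a with miR-27b 0.36 and 0.72, and miR-23b with miR-27a −0.02 and 0.72.

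Each guide strand was read by 2 probes of 10 spots each. The 2 probes gave the same direction in 57 of 60 differences, and in the other 3 the directions were opposite, for miR-27b at 24 h in WT, for miR-23a in the KO minus WT response at 12 h, and for miR-27a between 24 h and 12 h in WT. The largest gap between the probes of 1 strand was 0.297 on the log2 scale. Both probes of miR-27a and of miR-27b were higher in untreated KO than in untreated WT cells. The dimmer miR-27b probe was near background in untreated WT cells, at scaled signals of 0.0274 and 0.0252. On those arrays 90 and 20 percent of its spots were well above background.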

How the data were processed

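Cy3-labelled total RNA had been run on Agilent miRNA arrays of 1 colour, as the labels state, and the authors read them with Agilent Feature Extraction 10.7.1.1 per the submitters' processing notes. Spot values are, per the file headers, background-subtracted intensity in arbitrary units with no scaling between arrays, and flag columns hold 0 or 1. The deposited table holds log2 values, which equalled the log2 of the software's total gene signal.

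Processed signals were averaged over the spots of each probe, without control and outlier spots, and summed over a miRNA's probes. Sums were scaled to the 75th percentile of 82 miRNAs that were well above background on each of the 12 arrays (for any probe, at least 50 percent of its spots flagged so), raised to a floor of 0.0328 (−4.93 as log2) and turned into log2 values. The 145 mouse miRNAs that reached this level on both arrays of a group entered 1 fit of all 6 groups with limma 3.58.1 in R 4.3.3 (lmFit and eBayes, 6 residual degrees of freedom, prior 1.02). Adjustment was by Benjamini-Hochberg over the 145, with a threshold of 0.05. SD and SE rest on 2 arrays per group, and this number limits the precision.

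The members, the passenger list, the cell type lists and the rules were chosen with earlier results of these data known. All 5 members were named in every comparison, the passenger strands by counts and values, and for each member the 3 most correlated tested miRNAs. Alternatives covered background correction (normexp with offset 50, on the median signal, as the files used hold no mean signal column), signal summary, scaling, floor, filter, spread, replicate number, scan date (statmod 1.5.0) and each array left out.

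Replicate number coincided with scan date within each slide. Deviations of same-numbered arrays from their group means went together within a slide (r of 0.682 for the untreated pair of groups and 0.677 to 0.951 for the 6 tunicamycin pairs) and oppositely between slides (−0.542 to −0.238). Within a slide, an effect of scan date and one of the experiment behind a number cannot be told apart, and neither was tested. The main fit did not pair arrays by number.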

Additional observations from a re-analysis of the deposited data

Results flagged for a closer look

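The passenger strand miR-24-1* was picked out because its 12 h response differed between genotypes in a test of that difference: the KO response minus the WT response was −0.53 ± 0.11 on the log2 scale (limma, adjusted p = 0.0182). The KO response was −0.50, and all 4 WT arrays of this comparison were within 0.07 of the floor. Of its 12 arrays, 5 were well above background, both untreated KO arrays among them, so the size depends on the floor. Only untreated KO, the baseline of the KO response, had both arrays well above background. The strand was therefore tested only because that baseline was high, and no conclusion on a response is drawn from this p. No group had enough arrays for a test of single outlying samples.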

How the results depend on the processing

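With 2 arrays per group on 2 slides, and WT and KO in separate slide rows, the fit rests on 6 residual degrees of freedom and cannot separate treatment from slide or genotype from row. The floor raised values of the passenger strand and of no guide strand. Calls of guide strands still moved with it. With 2 times the floor, 3 members in place of 2 passed over the 3 conditions (52 of all 145, in place of 62). Scaling shifted the median of all miRNAs and many signs of uncalled members with it, and the cause was not tested. Local background reached 172397 units on 1 untreated KO array, where normexp left the members a range of 0.136 on the log2 scale. Of the values in other settings, 758 kept direction and side of the threshold, 65 turned sign, 30 lost a call and 27 gained one. For miR-27a and miR-27b in untreated KO against WT no setting turned the sign.

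With the replicate number as a block, untreated cells gave 0.76 for miR-27a (limma, adjusted p = 0.0305) and 1.07 for miR-27b (adjusted p = 0.0278). Deviations of same-numbered arrays had gone together only within a slide. As without the block, 2 members passed in untreated cells and over the 3 conditions. Over all miRNAs the block left 54 calls in untreated cells in place of 47. With scan date as a fixed block miR-27b over the 3 conditions had an adjusted p of 0.0549.

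Calls over all 145 miRNAs in untreated KO against WT were 14 with median scaling, 6 with quantile normalization, 1 with a 75th percentile over all mouse miRNAs and 26 with no scaling, in place of 47. Those higher in KO were 6, 2, 1 and 14, in place of 10.

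The number of members called, 2 for untreated KO against WT and for KO against WT over the 3 conditions, was 0 for both with normexp background correction, Agilent's total gene signal, median scaling, quantile normalization, a 75th percentile over all mouse miRNAs and no filter on dim miRNAs. With the deposited table as given it was 1 and 0 (5 and 8 of all 145 called), and for 24 h against untreated in KO 2 (14 of all). With the mean over probes of log2 signal it was 1 for 12 h against untreated in KO (3 of all 145 called) and in WT (44 of all). It was 2 for 24 h against untreated in KO (10 of all). With 2 times the floor it was 1 for each of these 3 comparisons, with 4, 38 and 8 of all called. With each of these 2 settings it was 3 over the 3 conditions, with 59 and 52 of all called. With no scaling it was 3 for 24 h against untreated in KO, and 1 for 24 h against untreated in WT, 12 h against untreated in KO, the response difference at 24 h, 24 h against 12 h in KO and KO against WT over the 3 conditions. All miRNAs called with no scaling were 55 for 24 h against untreated in KO and 63 in WT, 18 for 12 h in KO and 15 for the response difference at 24 h. They were 6 for 24 h against 12 h in KO and 27 for KO against WT over the 3 conditions. With only the arrays of the groups compared it was 4 for untreated KO against WT (90 of all 145 called) and 1 for the response difference at 12 h (47 of all). With array quality weights it was 2 for 24 h against untreated in WT (60 of all), 12 h against untreated in KO (24 of all) and the response difference at 12 h (49 of all). With scan date as a fixed block the number of members called was 1 for KO against WT over the 3 conditions (58 of all).

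Signs turned as follows, on the log2 scale. With normexp background correction values were miR-27a 0.04 for 12 h against untreated in KO, miR-23a −0.06 for untreated KO against WT, and miR-24 0.01 and miR-27b −0.43 for KO against WT at 24 h. They were miR-24 0.02 for the response difference at 12 h, miR-24 0.17 and miR-27a 0.23 for that at 24 h, and −0.08 for the KO minus WT difference of the miR-27 ratio. With Agilent's total gene signal they were miR-24 0.05 for untreated KO against WT and miR-23a −0.03 for the response difference at 12 h.

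With the deposited table as given, in WT against untreated, miR-23a was −0.04 at 12 h, and at 24 h miR-23a was −0.48, miR-23b −0.54, miR-27a −0.45 and miR-27b −0.75. In KO against untreated, miR-23a was −0.48 and miR-23b −0.47 at 12 h, and miR-23a −0.66 and miR-27a −0.93 at 24 h. miR-24 was 0.39 for untreated KO against WT and 0.03 over the 3 conditions, and miR-23a −0.45 and −0.18 for the response differences at 12 h and 24 h. With no scaling, in WT miR-23a was −0.06 at 12 h, and at 24 h miR-23a was −0.49, miR-23b −0.55, miR-27a −0.46 and miR-27b −0.76. In KO, miR-23a was −0.52 and miR-23b −0.50 at 12 h, and miR-23a −0.66 and miR-27a −0.93 at 24 h. miR-24 was 0.38 for untreated KO against WT and 0.03 over the 3 conditions, and miR-23a −0.46 and −0.17 for the response differences.

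With median scaling, miR-24 was 0.09 for 12 h against untreated in WT, miR-23a −0.03 and miR-23b −0.01 for 12 h against untreated in KO, and miR-27a −0.03 for 24 h. miR-24 was 0.30 for untreated KO against WT, miR-27a −0.06 for KO against WT at 12 h, and miR-23a −0.45 and −0.19 for the response differences at 12 h and 24 h. With quantile normalization, miR-23b was −0.25 for 12 h and miR-24 0.02 for 24 h against untreated in WT, and in KO miR-23a was −0.15 and miR-23b −0.37 at 12 h and miR-27a −0.09 at 24 h. miR-24 was 0.32 for untreated KO against WT, miR-27b −0.01 for KO against WT at 24 h, and miR-23a −0.40 and −0.43 for the response differences. With a 75th percentile over all mouse miRNAs, miR-24 was 0.11 for 24 h against untreated in WT, and in KO miR-23a was −0.58 and miR-23b −0.57 at 12 h, and miR-23a −0.34 and miR-27a −0.61 at 24 h. miR-24 was 0.54 for untreated KO against WT. For KO against WT, miR-23a was −0.10, miR-23b −0.05 and miR-27a −0.21 at 12 h, and miR-23a −0.17 and miR-27b −0.36 at 24 h. miR-23a was −0.84 and −0.91 for the response differences.

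Leaving out 1 array at a time, the number of members called ran from 0 to 2 for untreated KO against WT, KO against WT at 12 h and at 24 h, 12 h and 24 h against untreated in KO, the response difference at 24 h and 24 h against 12 h in KO. It ran from 0 to 1 for 12 h and 24 h against untreated in WT and the response difference at 12 h, and from 1 to 3 for KO against WT over the 3 conditions. Calls over all miRNAs in the same fits ran from 12 to 73 for untreated KO against WT, 12 to 49 for KO against WT at 12 h, 5 to 44 at 24 h and 47 to 73 over the 3 conditions. Against untreated they ran from 1 to 14 at 12 h and 1 to 37 at 24 h in KO, and 19 to 61 and 9 to 47 in WT. They ran from 10 to 48 and 6 to 34 for the response differences at 12 h and 24 h, and from 0 to 35 for 24 h against 12 h in KO. Ranges that crossed 0 were as follows. The KO minus WT difference ran from −0.41 to 0.15 for the miR-23 ratio and from −0.14 to 0.22 for the miR-27 ratio. miR-23a ran from −0.15 to 0.41 for 12 h against untreated in WT, from −0.06 to 0.50 for KO against WT at 12 h and from −0.24 to 0.32 for the response difference at 12 h. miR-23b ran from −1.24 to 0.34 for 24 h against untreated in KO, from −1.13 to 0.45 for KO against WT at 24 h and from −0.16 to 0.37 over the 3 conditions. It ran from −0.27 to 0.04 and from −1.52 to 0.06 for the response differences at 12 h and 24 h. miR-24 ran from −0.09 to 0.05 for untreated KO against WT and miR-27a from −0.22 to 0.44 for KO against WT at 12 h. miR-27b ran from −0.01 to 0.15 for 24 h against untreated in WT and from −0.37 to 0.65 for KO against WT at 24 h.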
